A study of Homo sapiens with 21 samples.

Results

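Interferon-stimulated genes are genes whose transcription rises when cells sense interferons, the signalling proteins that cells release on viral infection. The set described here holds 41 of them, given as a list of symbols of antiviral and interferon-induced genes by a rule that uses no measured value, among the 60668 genes of each count table. The members were, however, chosen with earlier results of these data known. All 41 were found by Ensembl identifier in both tables, and all 41 had enough counts to be tested in every comparison. They were measured by polyA-selected, stranded RNA sequencing in 21 libraries of HCC1806, an established human cell line derived from a breast cancer of the triple-negative class and cultured attached to plates. The libraries form 7 groups of 3. In the first table the groups are 3xCTL (genotype given as control), 3xSR (labelled as overexpressing the splicing factors SRSF2, SRSF3 and SRSF7 together) and MYC-OE (labelled as overexpressing the transcription factor MYC). In the second, single-factor table the groups are 1xCtrl (a control with a single plasmid) and the lines labelled as overexpressing 1 factor each, SRSF2-OE, SRSF3-OE and SRSF7-OE. The labels name no interferon or virus treatment, no vector and no promoter, and do not say whether a line is 1 clone. They also do not say whether the 3 libraries of a group came from separate cultures, so the p-values measure only the spread between these libraries, which may be technical. The title of the series names the joint splicing factor line and the MYC line, so the questions were how these genes stood in each line against the control of its own table, and how the lines differed from each other.

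Type I and type III interferons bind receptors that activate the kinases JAK1 and TYK2. These lead to the assembly of ISGF3, a complex that holds STAT2 and IRF9 and binds the interferon-stimulated response element (ISRE) upstream of its target genes. The products of those genes sense foreign RNA, block viral entry, translation, assembly or release, attach the ubiquitin-like protein ISG15 to other proteins, and feed back on the pathway. Many breast cancer lines transcribe part of the set without added interferon.

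The targeted factors were checked first. SRSF2 was not higher in the libraries labelled SRSF2-OE (398 against 444 CPM, counts scaled to the size of the library, in 1xCtrl; log2 fold change -0.16, SE 0.06, adjusted p 0.0980), nor in those labelled 3xSR (-0.06, SE 0.05, adjusted p 0.389), so both groups are named here by their labels. SRSF3 rose by 0.31 and SRSF7 by 0.44 on the log2 scale in the libraries labelled 3xSR, SRSF3 by 0.49 in SRSF3-OE, SRSF7 by 0.26 in SRSF7-OE and MYC by 0.90 in MYC-OE. MYC was also higher in the libraries labelled 3xSR (0.75), SRSF3-OE (0.26) and SRSF7-OE (0.27). The 12 epithelial and basal markers fixed for the line all exceeded 7.57 CPM in every library. Of 8 leukocyte markers 7 stayed under 1 CPM in every library and CLEC4C had no count, while CD14 ranged from 0.7 to 2.63 CPM. Of 7 fibroblast markers 5 stayed under 1 CPM, LUM ranged from 5.51 to 39.7 CPM and COL1A1 from 5.46 to 15.7 CPM. Of the 3 receptor genes fixed as low in triple-negative lines, ERBB2 ranged from 99.6 to 184 CPM and ESR1 from 6.49 to 11.5 CPM. PGR had means of 1.27 CPM in 1xCtrl and 0.191 in 3xCTL, and of 0.0116 or less in the other groups.

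Library 2 of 1xCtrl stands apart from the other control libraries. The median deviation of GC-rich genes (highest decile by transcript GC content) minus that of GC-poor genes (lowest decile) was 0.66 on the log2 scale in it, against -0.22 and -0.45 in libraries 1 and 3. In 3xCTL library 2 also differed, at -0.37 against 0.28 and 0.24. Members rich in GC followed this: ISG15 (63.4% GC) and IRF7 (66.8%) were 3.79 and 3.47 times higher in 1xCtrl library 2 than in the mean of the other 1xCtrl libraries. LGALS3BP (60.5% GC) was 1.72 times, IFITM3 1.69 times and BST2 1.56 times higher there. Many results on these members are therefore also given without these libraries, or with each library's GC trend removed.

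The letters of the ISRE are shown for members on which the results turn, because that site is what the set is known for. Each sequence is the 250 bases before the annotated start, 5′ to 3′ on the strand of the gene, from RefSeq (GRCh38.p14), in lower case with each match to the ISRE core (GAAA, any 2 bases, GAAA) or its reverse complement in capitals. ISG15 (chr1:1013247-1013496, plus strand) and IFIT1 (chr10:89392373-89392622, plus strand) encode classical members, and HERC5 (chr4:88456869-88457118, plus strand) encodes the ligase for ISG15. BST2 (chr19:17405631-17405880, minus strand) and IFITM1 (chr11:313790-314039, plus strand) were higher in some lines and lower in others, as was IFI44L (chr1:78620198-78620447, plus strand). OAS1 (chr12:112906712-112906961, plus strand) is shown as a member with no match in this window. The search takes only a gap of 2 bases. Near the end of its window OAS1 holds GAAA, 1 base and GAAA, which is not counted.
ISG15: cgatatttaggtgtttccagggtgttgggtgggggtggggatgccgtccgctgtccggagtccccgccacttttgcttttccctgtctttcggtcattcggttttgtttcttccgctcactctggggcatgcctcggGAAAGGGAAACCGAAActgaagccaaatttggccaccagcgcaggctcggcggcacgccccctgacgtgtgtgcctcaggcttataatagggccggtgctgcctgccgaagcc
IFIT1: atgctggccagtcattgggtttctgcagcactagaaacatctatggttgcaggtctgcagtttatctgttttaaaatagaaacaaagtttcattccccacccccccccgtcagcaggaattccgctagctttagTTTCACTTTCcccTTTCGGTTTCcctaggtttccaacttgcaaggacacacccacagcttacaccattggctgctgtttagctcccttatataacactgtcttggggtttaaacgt
HERC5: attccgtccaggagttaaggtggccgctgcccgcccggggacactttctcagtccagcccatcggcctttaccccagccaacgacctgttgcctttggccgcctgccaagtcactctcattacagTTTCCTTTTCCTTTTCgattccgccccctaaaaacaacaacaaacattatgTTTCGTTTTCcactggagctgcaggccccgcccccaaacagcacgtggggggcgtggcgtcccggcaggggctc
BST2: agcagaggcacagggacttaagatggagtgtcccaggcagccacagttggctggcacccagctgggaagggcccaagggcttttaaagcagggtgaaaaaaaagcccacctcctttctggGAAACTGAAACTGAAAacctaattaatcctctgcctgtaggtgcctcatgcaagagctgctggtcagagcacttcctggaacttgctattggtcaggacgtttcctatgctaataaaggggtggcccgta
IFITM1: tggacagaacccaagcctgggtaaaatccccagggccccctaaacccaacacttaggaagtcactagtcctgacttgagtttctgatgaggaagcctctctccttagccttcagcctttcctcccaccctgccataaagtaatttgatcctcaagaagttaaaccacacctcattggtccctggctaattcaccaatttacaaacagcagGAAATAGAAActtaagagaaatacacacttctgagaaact
IFI44L: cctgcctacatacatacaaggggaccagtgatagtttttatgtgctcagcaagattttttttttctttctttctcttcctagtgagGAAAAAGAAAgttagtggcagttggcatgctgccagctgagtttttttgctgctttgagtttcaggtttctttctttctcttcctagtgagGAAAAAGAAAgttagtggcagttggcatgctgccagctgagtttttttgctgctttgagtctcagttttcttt
OAS1: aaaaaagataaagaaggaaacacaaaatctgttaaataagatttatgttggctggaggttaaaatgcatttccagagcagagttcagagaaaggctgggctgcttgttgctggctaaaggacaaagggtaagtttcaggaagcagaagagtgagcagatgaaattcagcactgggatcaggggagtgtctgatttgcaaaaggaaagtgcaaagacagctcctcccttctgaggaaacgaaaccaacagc

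RefSeq start sites were found for 33 of the 41 members, with 43 starts in all. The ISRE core, searched on both strands with a start counted once however many matches it held, lay upstream of 23 of these 33 members (69.7%) and of 60.5% of their starts, against 3.02% of 35116 starts of all genes. TTCNNNGAA, the letters of the interferon gamma-activated site (GAS), lay upstream of 11 of the 33 (33.3%) and of 27.9% of their starts, against 6.57% of all starts. HERC5 and BST2 show how matches can run into each other: in HERC5 the first 2 of 3 matches overlap, and in BST2 both do. The 3 starts of CMPK2 had no match, and of the 3 starts of MX1 only the last did. A match describes letters, not a site in use, and the lack of one does not mean that no such site is there. Gaps of other lengths, as in OAS1, and sites outside the window are not counted. The 23 members with a match held 16 higher and 2 lower calls in MYC-OE (median log2 fold change 0.41), and the 10 without one 5 and 1 (0.22). In the libraries labelled 3xSR the calls were 8 and 5 with a match (median -0.09) and 5 and 2 without (0.21). For those labelled SRSF2-OE they were 1 and 6 with a match and 2 and 1 without, in SRSF3-OE 3 and 5, and 1 and 5, and in SRSF7-OE 9 and 0, and 3 and 2. Among all genes tested, 18.0% were higher and 17.3% lower in MYC-OE, and 15.3% and 13.7% in the libraries labelled 3xSR. The shares were 11.6% and 11.9% in those labelled SRSF2-OE, 15.0% and 14.1% in SRSF3-OE and 9.03% and 8.26% in SRSF7-OE. With only 10 members lacking a match, the counts are not read as a difference between members with and without the letters.

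The set was already transcribed in the control cells. Per kilobase (kb) of the longest transcript, the highest mean level in 3xCTL was that of LGALS3BP, a secreted glycoprotein, at 326 CPM per kb, followed by IFITM3 at 90.1, OAS3 at 32.3, IFITM1 at 29.8 and STAT2 at 19.1. The lowest were IRF7 at 0.0922, CMPK2 at 0.0419 and RSAD2 at 0.0208 CPM per kb. In 1xCtrl the highest were again LGALS3BP (268) and IFITM3 (74.1), and the lowest CMPK2 (0.14) and RSAD2 (0.129). The tables were normalised separately, so levels are not compared between them. Summed over the 41 genes, the level was 1699 to 1940 CPM in 3xCTL, 1615 to 1665 in the libraries labelled 3xSR and 2012 to 2056 in MYC-OE. It was 1608 to 1979 CPM in 1xCtrl, 1548 to 1625 in the libraries labelled SRSF2-OE, 1575 to 1632 in SRSF3-OE and 1812 to 1937 in SRSF7-OE. LGALS3BP alone gives a large part of each sum, so the sums are no measure of the other members. In bulk RNA, fewer cells that transcribe a gene and less of its RNA per cell cannot be told apart.

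Most members were higher in MYC-OE than in its control, while the SRSF3-OE line and the line labelled SRSF2-OE had more members below their control than above it. A gene is called here when its adjusted p is under 0.05 in the edgeR test. In MYC-OE 29 of 41 members were called, 26 higher and 3 lower, where 35.3% of all genes tested were called (18.0% higher, 17.3% lower). With the libraries labelled 3xSR the number was 24, with 15 higher and 9 lower (29% of all genes, 15.3% higher and 13.7% lower). For the libraries labelled SRSF2-OE it was 14, with 3 higher and 11 lower (23.5% of all genes, 11.6% higher and 11.9% lower), and for SRSF3-OE 16, with 4 higher and 12 lower (29.2%, 15.0% higher and 14.1% lower). SRSF7-OE had 18 called, 16 higher and 2 lower (17.3% of all genes, 9.03% higher and 8.26% lower). In the order of MYC-OE, 3xSR, SRSF2-OE, SRSF3-OE and SRSF7-OE, members called were 70.7%, 58.5%, 34.1%, 39.0% and 43.9%. Most members are well expressed, and among all genes with a mean of at least 1 CPM the shares called were 45.5%, 38.2%, 33.4%, 40.7% and 25% in the same order. In SRSF3-OE and in the libraries labelled SRSF2-OE the members' share called in either direction is thus near or below that background. That share is not a result about the set. By direction, 23.2% of these better expressed genes were higher and 17.5% lower in SRSF3-OE, beside 4 and 12 of the 41 members. In the libraries labelled SRSF2-OE 16.4% were higher and 17.1% lower, beside 3 and 11 members. The split by direction was not tested.

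The members' median log2 fold change was 0.36 in MYC-OE, 0.18 in SRSF7-OE, -0.02 in the libraries labelled 3xSR, -0.14 in SRSF3-OE and -0.14 in those labelled SRSF2-OE, beside medians between -0.03 and 0.00 over all genes. Within each line members moved in both directions, and no member was called in the same direction in all 5 comparisons with a control. BST2 was the only member called in all 5. IFIH1 and EPSTI1 were called in none.

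**Figure D1:**
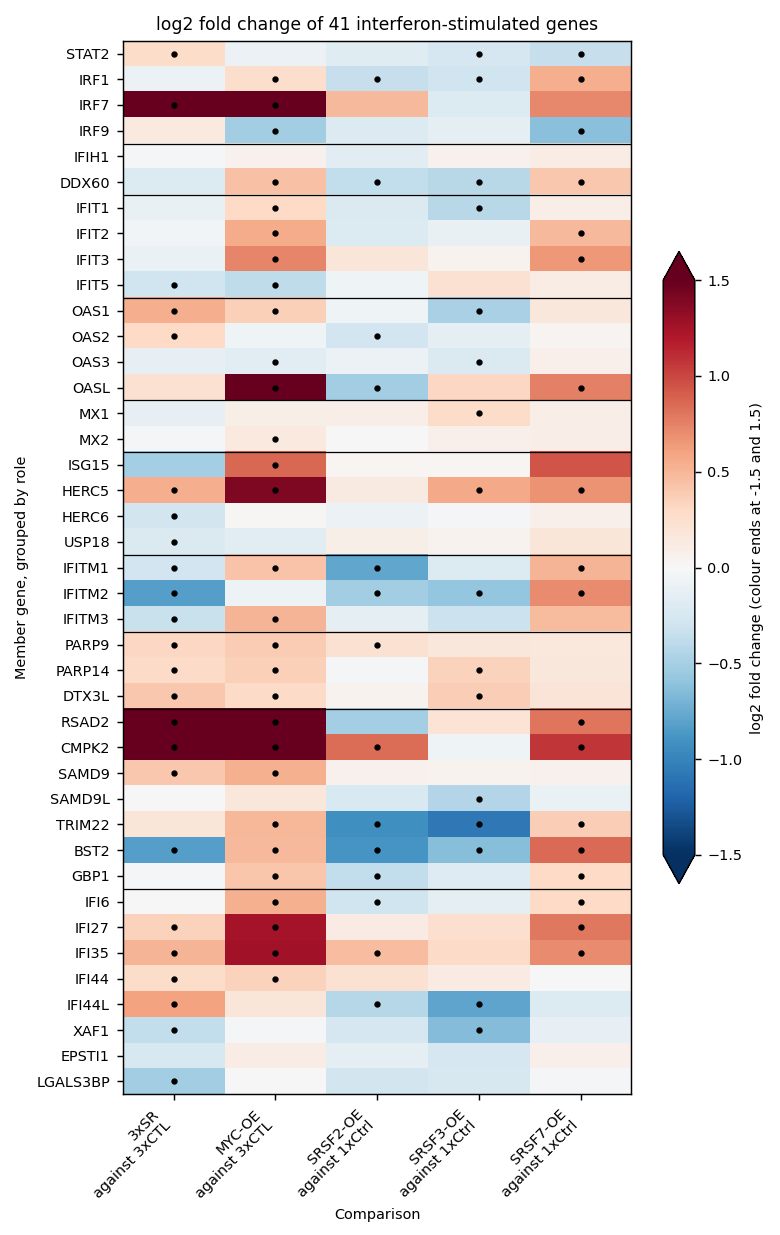
Log2 fold change of the 41 genes (rows, grouped by role) in the 5 comparisons with a control (columns). Red is higher and blue lower than the control, the colour ends at -1.5 and 1.5, and a dot marks an adjusted p under 0.05 (edgeR). The MYC-OE column holds 26 red cells with a dot, and the SRSF3-OE column 12 blue ones.

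**Figure D2:**
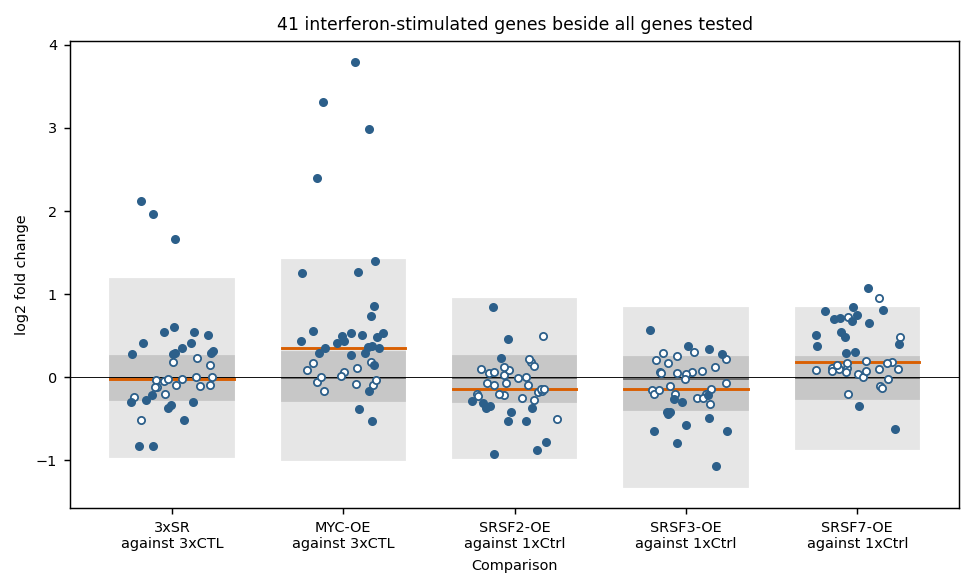
Log2 fold change of each of the 41 genes (points, filled where the adjusted p is under 0.05) in the 5 comparisons with a control. The light band spans the 5th to 95th and the dark band the 25th to 75th percentile of all genes tested, the black line is the median of all genes and the orange line that of the 41. The orange line lies at 0.36 in MYC-OE and at -0.14 in SRSF3-OE.

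The number of calls moved with single control libraries. Without 1xCtrl library 2 the calls were 19 in the libraries labelled SRSF2-OE (4 higher, 15 lower), 21 in SRSF3-OE (6 higher, 15 lower) and 20 in SRSF7-OE. Without 1xCtrl library 1 the SRSF7-OE count fell to 10 (8 higher, 2 lower), a change of over 1.5 times, and that in the libraries labelled SRSF2-OE was 10, all lower. By library totals only the latter was 1 higher and 17 lower, and with the GC trend removed 7 higher and 17 lower. With each library's GC trend removed, all but 1 (OAS3 in SRSF3-OE) of the 101 member results called in the 5 comparisons were still called, and 31 of the 104 not called became called. For counts in any of these alternative fits, with a library left out, another scaling or the GC trend removed, the share of all genes called is not given. This holds here and below. A larger or smaller count in such a fit is therefore not read as a result about the set. CD14 and the fibroblast gene LUM moved with some groups: the summed leukocyte markers were 1.90 to 2.66 CPM in 3xCTL, 1.6 to 1.79 in the libraries labelled 3xSR and 2.72 to 2.82 in MYC-OE, and 2.06 to 3.46 in 1xCtrl, 1.06 to 1.33 in the libraries labelled SRSF2-OE, 1.41 to 1.83 in SRSF3-OE and 2.51 to 2.88 in SRSF7-OE. The summed fibroblast markers were 47.5 to 49.7 CPM in 3xCTL, 23.0 to 26.0 in the libraries labelled 3xSR and 19.3 to 19.4 in MYC-OE, and 28.6 to 33.1 in 1xCtrl, 16.3 to 16.6 in the libraries labelled SRSF2-OE, 15.4 to 16.6 in SRSF3-OE and 21 to 24.1 in SRSF7-OE. Their part in the results on the 41 genes was not tested.

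**Figure D3:**
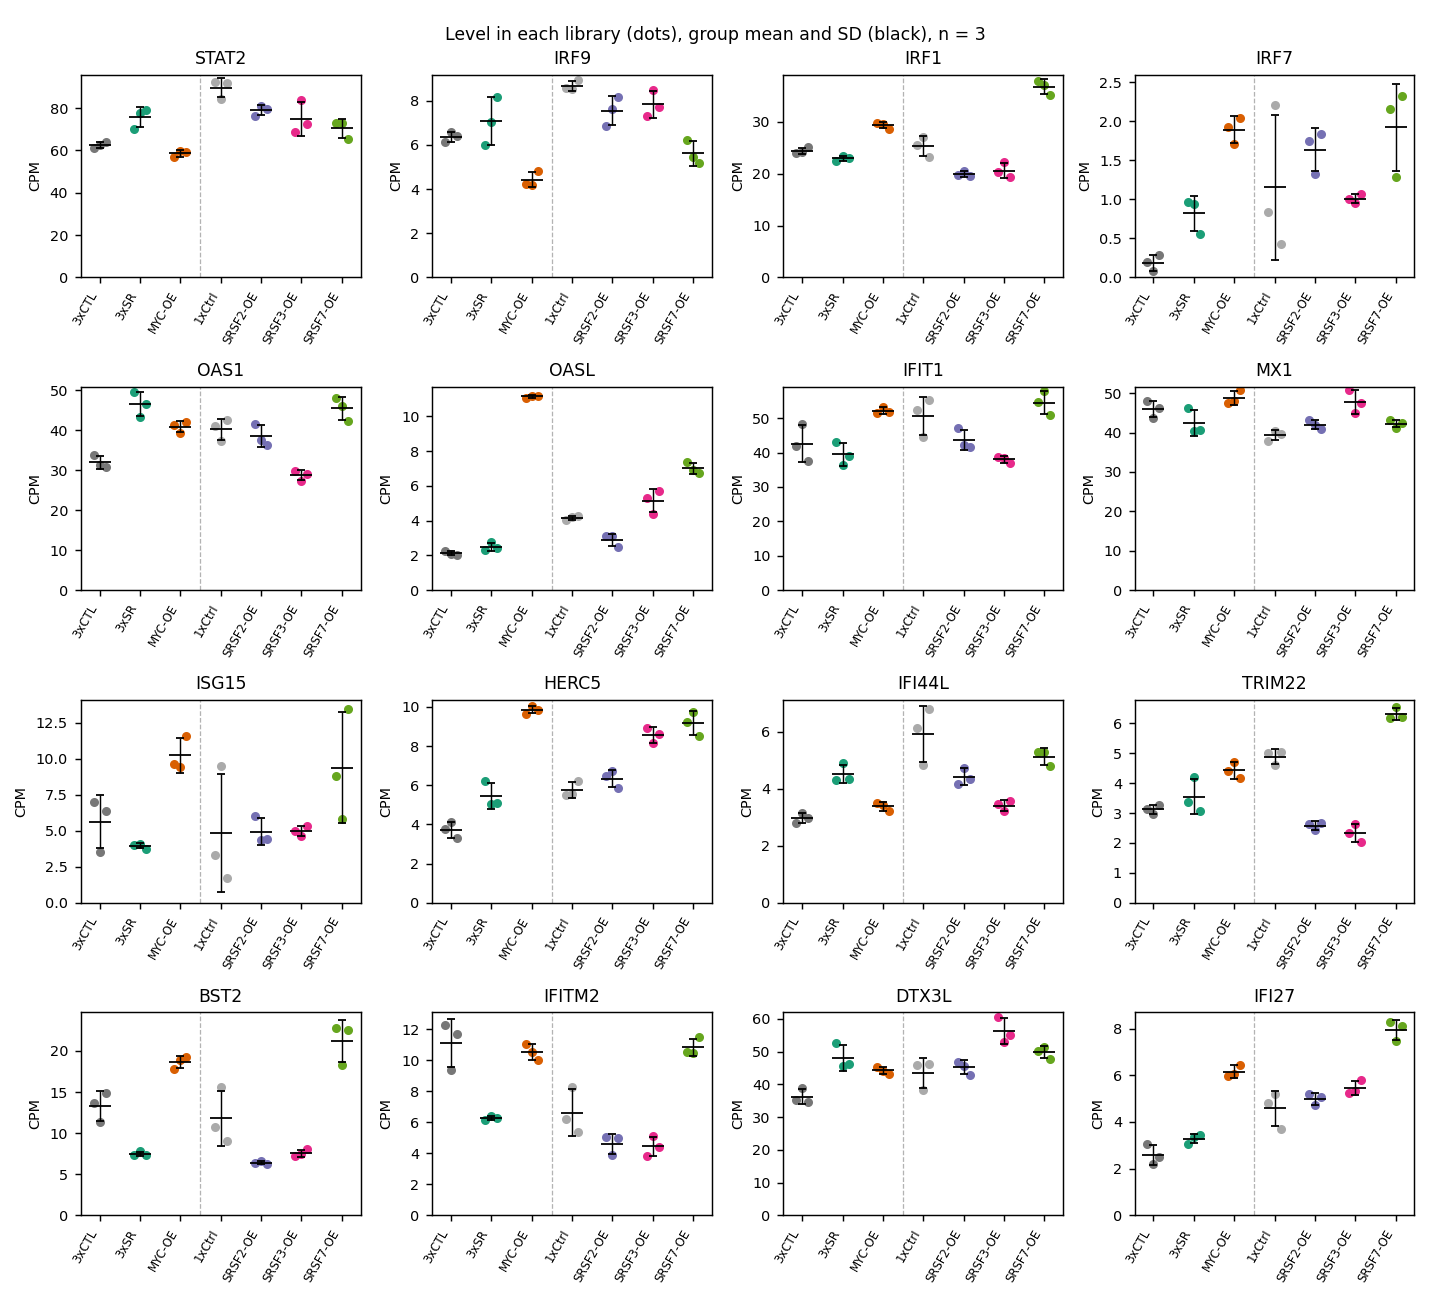
Level in CPM (vertical axis, from 0) of 16 of the genes in each library (dots), with the mean and SD of each group of 3 (black). The dashed line separates the 2 count tables, which were normalised separately. The 3 MYC-OE libraries of OASL lie between 11.1 and 11.2 CPM, above every library of 3xCTL, and the ISG15 dots of 1xCtrl spread from 1.71 to 9.51 CPM.

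The 4 transcription factors of the set did not move together. Higher and lower calls were 2 and 0 in the libraries labelled 3xSR, 2 and 1 in MYC-OE, 0 and 1 in those labelled SRSF2-OE, 0 and 2 in SRSF3-OE and 1 and 2 in SRSF7-OE. STAT2 and IRF9 belong to ISGF3, IRF1 activates many of the same target genes, and IRF7 drives transcription of type I interferon genes. STAT2 (ENSG00000170581.14; chr12:56341597-56360155, minus strand) had 61.2, 62.5 and 64 CPM in 3xCTL, 70.2, 77.8 and 79.1 in the libraries labelled 3xSR and 56.9, 59.9 and 59.2 in MYC-OE. Every library labelled 3xSR lay above every 3xCTL library, and the log2 fold change was 0.27 (SE 0.06, adjusted p 0.00279). In MYC-OE it was -0.09 (SE 0.06, adjusted p 0.219). In the second table STAT2 had 92.2, 84.4 and 92.1 CPM in 1xCtrl, 68.5, 83.9 and 72.6 in SRSF3-OE, 72.8, 73 and 65.5 in SRSF7-OE and 76.5, 80.9 and 79.8 in libraries labelled SRSF2-OE. All libraries of the other 3 groups of that table lay below those of 1xCtrl, with -0.18 (adjusted p 0.113) in the libraries labelled SRSF2-OE, -0.26 (SE 0.08, adjusted p 0.0232) in SRSF3-OE and -0.35 (SE 0.08, adjusted p 0.00831) in SRSF7-OE. STAT2 thus rose in the libraries labelled 3xSR and fell in SRSF3-OE and in SRSF7-OE.

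IRF9 had 6.11, 6.56 and 6.38 CPM in 3xCTL, 5.97, 7.06 and 8.15 in the libraries labelled 3xSR and 4.24, 4.2 and 4.8 in MYC-OE (chr14:24161053-24166565, plus strand). It fell in MYC-OE, -0.52 (SE 0.11, adjusted p 0.00336), where no library overlapped with 3xCTL. Its levels in the second table were 8.57, 8.54 and 8.94 CPM in 1xCtrl, 7.3, 8.5 and 7.7 in SRSF3-OE, 6.24, 5.46 and 5.16 in SRSF7-OE and 6.87, 7.61 and 8.16 in libraries labelled SRSF2-OE. In SRSF7-OE the log2 fold change was -0.63 (SE 0.10, adjusted p 0.0014), again with no overlap with the control. IRF9 was the only member called lower in both MYC-OE and SRSF7-OE. Another gene on the same strand (ENSG00000259529) covers 1838 of its 3794 exon bases, so the counts of the 2 genes may not be separable.

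IRF1 moved in both directions. It had 23.9, 24.1 and 25.1 CPM in 3xCTL, 22.3, 23.4 and 23 in the libraries labelled 3xSR and 29.7, 29.5 and 28.7 in MYC-OE, with 0.27 (SE 0.05, adjusted p 0.00155) in MYC-OE and -0.09 (adjusted p 0.225) in the libraries labelled 3xSR. Its levels in the second table were 25.5, 27.1 and 23.2 CPM in 1xCtrl, 20.2, 22.2 and 19.3 in SRSF3-OE, 37.9, 37.1 and 35.2 in SRSF7-OE and 19.8, 20.6 and 19.5 in libraries labelled SRSF2-OE. The 3 SRSF7-OE libraries exceeded all 1xCtrl libraries, with 0.54 (SE 0.07, adjusted p 0.000532), while it fell in the libraries labelled SRSF2-OE, -0.34 (SE 0.07, adjusted p 0.00446), and in SRSF3-OE, -0.30 (SE 0.07, adjusted p 0.00801). IRF1 shares 1716 of 7799 exon bases with genes on the opposite strand, among them IRF1-AS1, and the strand setting of the counting is not given in the sources used here.

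IRF7 was scarce. It had 0.203, 0.0809 and 0.283 CPM in 3xCTL, 0.965, 0.938 and 0.559 in the libraries labelled 3xSR and 1.93, 1.71 and 2.05 in MYC-OE, so that both lines lay above all 3xCTL libraries, and the log2 fold changes were 2.12 (SE 0.36, adjusted p 0.00155) in the libraries labelled 3xSR and 3.32 (SE 0.37, adjusted p 6.39e-05) in MYC-OE. The second table gave it 0.843, 2.2 and 0.426 CPM in 1xCtrl, 1, 0.956 and 1.07 in SRSF3-OE, 2.16, 1.28 and 2.32 in SRSF7-OE and 1.75, 1.32 and 1.83 in libraries labelled SRSF2-OE. Only SRSF7-OE library 3 exceeded library 2 of 1xCtrl, the other 1xCtrl libraries were far lower, and no comparison called IRF7: -0.20 in SRSF3-OE, 0.73 in SRSF7-OE and 0.49 in the libraries labelled SRSF2-OE (adjusted p 0.805, 0.353 and 0.531). Without that library IRF7 was called higher in the libraries labelled SRSF2-OE (1.36, adjusted p 0.00564) and in SRSF7-OE (1.61, adjusted p 0.0025). With the GC trend removed the values were 0.76 (adjusted p 0.0104) and 0.66 (adjusted p 0.025).

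Of the 2 sensors and helicases, IFIH1, which encodes the double-stranded RNA sensor MDA5, had log2 fold changes between -0.17 and 0.12 in the 5 comparisons and was called in none. DDX60, a helicase that acts with cytosolic RNA sensors, rose in MYC-OE, 0.44 (SE 0.08, adjusted p 0.00106), and in SRSF7-OE, 0.41 (SE 0.09, adjusted p 0.0101). It fell in the libraries labelled SRSF2-OE, -0.37 (SE 0.09, adjusted p 0.0121), and in SRSF3-OE, -0.42 (SE 0.09, adjusted p 0.00417). In MYC-OE its level was 16.1 ± 0.892 CPM (SD, n = 3) beside 11.9 ± 0.433 CPM in 3xCTL.

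The IFIT genes, which lie side by side on chromosome 10 (chr10:89283694-89421001, GRCh38), encode proteins that bind the 5′ ends of foreign RNAs. Of the 4, 3 were called higher and 1 lower in MYC-OE, 2 higher in SRSF7-OE, 1 lower in SRSF3-OE and 1 lower in the libraries labelled 3xSR. IFIT1 had 41.9, 48.3 and 37.6 CPM in 3xCTL, 43, 36.4 and 39 in the libraries labelled 3xSR and 51.6, 53.4 and 51.7 in MYC-OE. MYC-OE lay above every 3xCTL library, with 0.29 (SE 0.09, adjusted p 0.0181), though the call was lost without 3xCTL library 3 or MYC-OE library 2 (adjusted p up to 0.0629, here and elsewhere the highest over the alternative fits, the minimum fold change aside). Libraries are named below where leaving them out lost a call. Some of those calls were also lost under other settings of the fit. The single-factor table gave it 52.5, 44.4 and 55.2 CPM in 1xCtrl, 38.9, 38.5 and 36.9 in SRSF3-OE, 54.7, 57.9 and 51 in SRSF7-OE and 47.1, 42.1 and 41.7 in libraries labelled SRSF2-OE, and the SRSF3-OE libraries were the lowest, at -0.41 (SE 0.08, adjusted p 0.00209). IFIT2 and IFIT3 rose in MYC-OE, 0.56 (SE 0.09, adjusted p 0.000806) and 0.74 (SE 0.11, adjusted p 0.000327), and in SRSF7-OE, 0.49 (SE 0.09, adjusted p 0.00409) and 0.65 (SE 0.08, adjusted p 0.00018). IFIT5 was called in the direction opposite to its neighbours in MYC-OE. It had 23.9, 27.5 and 22.7 CPM in 3xCTL, 22, 19.1 and 19.1 in the libraries labelled 3xSR and 20.5, 18.4 and 18.2 in MYC-OE, and it fell in MYC-OE, -0.38 (SE 0.09, adjusted p 0.0049). It was also lower in the libraries labelled 3xSR, -0.30 (SE 0.09, adjusted p 0.021), a call lost without 3xSR library 2 or library 3 (adjusted p up to 0.0904). For the second control and its lines, IFIT5 had 19.9, 16.5 and 20.6 CPM in 1xCtrl, 23.5, 21.3 and 21.8 in SRSF3-OE, 19.5, 21.7 and 20.3 in SRSF7-OE and 19.2, 18 and 17.2 in libraries labelled SRSF2-OE, with no call.

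The OAS genes encode synthetases of 2′,5′-linked oligoadenylates, which activate RNase L, except OASL, which lacks that activity. OAS1, OAS3 and OAS2 are neighbours on chromosome 12 (chr12:112906777-113011723). OAS1 had 33.6, 31.2 and 30.8 CPM in 3xCTL, 49.6, 43.4 and 46.6 in the libraries labelled 3xSR and 41.4, 39.3 and 42 in MYC-OE. Both of the other groups lay above every 3xCTL library, with 0.54 (SE 0.06, adjusted p 4.60e-05) in the libraries labelled 3xSR and 0.36 (SE 0.06, adjusted p 0.000723) in MYC-OE. Among the single-factor lines and their control, OAS1 had 40.9, 37.3 and 42.4 CPM in 1xCtrl, 29.7, 27.3 and 29.1 in SRSF3-OE, 47.9, 46 and 42.3 in SRSF7-OE and 41.5, 37.5 and 36.2 in libraries labelled SRSF2-OE, and SRSF3-OE lay below every control library, -0.49 (SE 0.07, adjusted p 0.000309).

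OAS2 rose in the libraries labelled 3xSR, 0.29 (SE 0.06, adjusted p 0.00206), and fell in those labelled SRSF2-OE, -0.29 (SE 0.08, adjusted p 0.0192). OAS3, with the highest level of the family per kilobase in both controls, had 233, 199.6 and 219.8 CPM in 3xCTL, 204, 194 and 201 in the libraries labelled 3xSR and 194, 194 and 192 in MYC-OE. Its differences were small: -0.17 (SE 0.06, adjusted p 0.037) in MYC-OE, lost without 3xCTL library 1 or library 3 or any 1 of the MYC-OE libraries (adjusted p up to 0.149). In the second table OAS3 had 179, 176 and 173 CPM in 1xCtrl, 154, 148 and 153 in SRSF3-OE, 192, 190 and 177 in SRSF7-OE and 174, 162 and 159.7 in libraries labelled SRSF2-OE, with -0.21 (SE 0.06, adjusted p 0.0104) in SRSF3-OE, which became -0.12 (adjusted p 0.123) with the GC trend removed.

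OASL (chr12:121019111-121039242, minus strand) had the largest fold change against a control after those of RSAD2, IRF7 and CMPK2, in MYC-OE. It had 2.27, 2.06 and 2.04 CPM in 3xCTL, 2.29, 2.75 and 2.4 in the libraries labelled 3xSR and 11.1, 11.2 and 11.2 in MYC-OE, so that the MYC-OE libraries were near each other and far above both other groups, with 2.39 (SE 0.10, adjusted p 7.16e-09). In the libraries labelled 3xSR the value was 0.23 (adjusted p 0.098). The second table gave OASL 4.02, 4.2 and 4.26 CPM in 1xCtrl, 5.33, 4.41 and 5.69 in SRSF3-OE, 7.36, 6.92 and 6.74 in SRSF7-OE and 3.09, 3.1 and 2.5 in libraries labelled SRSF2-OE. All SRSF7-OE libraries exceeded the controls, 0.75 (SE 0.12, adjusted p 0.00122), and all libraries labelled SRSF2-OE lay below them, -0.52 (SE 0.12, adjusted p 0.00589). In no line were all 4 OAS genes called in 1 direction.

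The MX genes encode GTPases that trap viral ribonucleoproteins, and were called in 1 comparison each. MX1 had 47.9, 43.7 and 46.3 CPM in 3xCTL, 46.2, 40.3 and 40.6 in the libraries labelled 3xSR and 47.5, 48.2 and 50.9 in MYC-OE, with -0.12 (adjusted p 0.187) in the libraries labelled 3xSR and 0.09 (adjusted p 0.325) in MYC-OE. The single-factor table gave it 38, 40.5 and 39.5 CPM in 1xCtrl, 50.9, 44.9 and 47.5 in SRSF3-OE, 43.1, 41.2 and 42.4 in SRSF7-OE and 43.3, 41.9 and 40.9 in libraries labelled SRSF2-OE. SRSF3-OE lay above all 1xCtrl libraries, 0.28 (SE 0.06, adjusted p 0.00288), a call lost without 1xCtrl library 1 and without SRSF3-OE library 1 or library 3 (adjusted p up to 0.0857). MX2 was called once, at 0.15 (SE 0.05, adjusted p 0.0308) in MYC-OE, and this was lost without any 1 of the MYC-OE libraries and without 3xCTL library 1 or library 3 (adjusted p up to 0.11).

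In the ISG15 system the ligase HERC5 was called higher in 4 lines and ISG15 itself in MYC-OE alone. ISG15, the ubiquitin-like protein, had 6.98, 3.52 and 6.39 CPM in 3xCTL, 4.03, 4.05 and 3.76 in the libraries labelled 3xSR and 9.65, 9.43 and 11.6 in MYC-OE. MYC-OE lay above every 3xCTL library, 0.86 (SE 0.22, adjusted p 0.0121); the adjusted p was 0.05003 when only the groups compared were fitted. For the libraries labelled 3xSR the value was -0.51 (adjusted p 0.109), and without 3xCTL library 2 it was -0.76 (adjusted p 5.63e-05); with the GC trend removed it was -0.22 (adjusted p 0.145).

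For the second control and its lines, ISG15 had 3.31, 9.51 and 1.71 CPM in 1xCtrl, 4.97, 4.6 and 5.31 in SRSF3-OE, 8.82, 5.81 and 13.4 in SRSF7-OE and 6.01, 4.32 and 4.46 in libraries labelled SRSF2-OE. The spread of the controls covers that of the other groups but for SRSF7-OE library 3, and no comparison was called: 0.95 in SRSF7-OE, 0.03 in SRSF3-OE and 0.02 in the libraries labelled SRSF2-OE (adjusted p 0.294, 0.975 and 0.981). Without 1xCtrl library 2 the SRSF7-OE value was 1.92 (adjusted p 0.01). With the GC trend removed it was 0.95 (adjusted p 0.0734).

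HERC5 (chr4:88457117-88506163, plus strand), the main ligase of ISG15 in human cells, had 3.76, 4.11 and 3.31 CPM in 3xCTL, 6.2, 5.06 and 5.08 in the libraries labelled 3xSR and 9.66, 10 and 9.85 in MYC-OE. It rose in the libraries labelled 3xSR, 0.55 (SE 0.11, adjusted p 0.00238), and in MYC-OE, 1.40 (SE 0.11, adjusted p 1.35e-06), with no overlap with 3xCTL. Among the single-factor lines and their control, it had 5.48, 5.56 and 6.23 CPM in 1xCtrl, 8.92, 8.15 and 8.64 in SRSF3-OE, 9.25, 9.74 and 8.53 in SRSF7-OE and 6.45, 6.73 and 5.85 in libraries labelled SRSF2-OE. HERC5 rose in SRSF3-OE, 0.57 (SE 0.09, adjusted p 0.000431), and in SRSF7-OE, 0.67 (SE 0.09, adjusted p 0.000557), and in the libraries labelled SRSF2-OE it was 0.14 (adjusted p 0.313). Its calls in these 4 lines were kept in every alternative fit but the minimum fold change. The related gene HERC6, next to it on chromosome 4, fell in the libraries labelled 3xSR, -0.27 (SE 0.07, adjusted p 0.0114), and was not called in the other 4 comparisons. USP18, the protease that removes ISG15, was called once, at -0.21 (SE 0.07, adjusted p 0.0411) in the libraries labelled 3xSR, and lost that call without 3xCTL library 2 or library 3 or any 1 of the 3xSR libraries (adjusted p up to 0.0961). That call was also lost with upper-quartile scaling, no filter, a replicate block and only the groups compared.

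The IFITM genes encode small membrane proteins that hinder fusion of viruses with the cell, and lie together on chromosome 11 (chr11:307631-327537). All 3 were called lower in the libraries labelled 3xSR, where 13.7% of all genes tested were called lower. IFITM1 had 25.3, 23.6 and 27.5 CPM in 3xCTL, 19.8, 22.1 and 20.5 in the libraries labelled 3xSR and 34.9, 36 and 32.2 in MYC-OE, with -0.29 (SE 0.07, adjusted p 0.0094) in the libraries labelled 3xSR and 0.43 (SE 0.07, adjusted p 0.000559) in MYC-OE, both without overlap with 3xCTL. In the second table IFITM1 had 27.2, 30.9 and 21.1 CPM in 1xCtrl, 22.5, 23.4 and 23 in SRSF3-OE, 38.7, 37.6 and 36.2 in SRSF7-OE and 16.4, 13.3 and 16.6 in libraries labelled SRSF2-OE. The libraries labelled SRSF2-OE were the lowest, -0.78 (SE 0.12, adjusted p 0.000474), and SRSF7-OE the highest, 0.50 (SE 0.12, adjusted p 0.0105).

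IFITM2 had 12.3, 9.36 and 11.7 CPM in 3xCTL, 6.17, 6.42 and 6.25 in the libraries labelled 3xSR and 11.1, 10.5 and 10 in MYC-OE. The libraries labelled 3xSR lay below both other groups, -0.82 (SE 0.10, adjusted p 7.72e-05), and MYC-OE was not called (-0.08, adjusted p 0.587). The second table gave it 6.2, 8.31 and 5.39 CPM in 1xCtrl, 3.85, 5.1 and 4.41 in SRSF3-OE, 10.5, 10.5 and 11.5 in SRSF7-OE and 5.03, 3.87 and 4.97 in libraries labelled SRSF2-OE, with -0.52 (SE 0.16, adjusted p 0.0297) in the libraries labelled SRSF2-OE, -0.58 (SE 0.16, adjusted p 0.0149) in SRSF3-OE and 0.71 (SE 0.16, adjusted p 0.0086) in SRSF7-OE.

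For IFITM3, mean levels were 72.8 ± 8.81 CPM (SD, n = 3) in 3xCTL, 57.6 ± 3.41 CPM in the libraries labelled 3xSR and 103 ± 1.99 CPM in MYC-OE, with log2 fold changes of -0.34 (SE 0.08, adjusted p 0.00723) and 0.51 (SE 0.08, adjusted p 0.000381). With the GC trend removed these were -0.19 (adjusted p 0.00272) in the libraries labelled 3xSR and 0.51 (adjusted p 1.6e-07) in MYC-OE. In SRSF7-OE the value was 0.48 (adjusted p 0.109), and without 1xCtrl library 2, the library with high IFITM3, it was 0.80 (adjusted p 0.000134). Single libraries decided several of the other calls in the second table. In SRSF7-OE those of IFITM1 and IFITM2 were lost without 1xCtrl library 1 and without SRSF7-OE library 3, and that of IFITM1 also without SRSF7-OE library 1 or library 2 (adjusted p up to 0.0918 and 0.078). IFITM2 in the libraries labelled SRSF2-OE lost its call without 1xCtrl library 2 and without any 1 of the SRSF2-OE libraries (adjusted p up to 0.129). In SRSF3-OE it lost its call without SRSF3-OE library 1 or library 3 (adjusted p up to 0.0789). IFITM1 and IFITM2 share 351 exon bases on 1 strand, and the family is similar in sequence, so reads may be split between its members.

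PARP9, DTX3L and PARP14 rose in every line in which they were called. PARP9 and DTX3L encode an ADP-ribosyltransferase and its partner ubiquitin ligase, and are transcribed in opposite directions from neighbouring starts on chromosome 3 (chr3:122527924-122575203). PARP9 had 28.1, 30.8 and 27.3 CPM in 3xCTL, 37.4, 34 and 35.5 in the libraries labelled 3xSR and 37.9, 37.4 and 36.7 in MYC-OE, and DTX3L had 35.4, 38.9 and 34.7 CPM in 3xCTL, 52.7, 45.6 and 46.2 in the libraries labelled 3xSR and 45.4, 44.2 and 43.3 in MYC-OE. The log2 fold changes in the libraries labelled 3xSR were 0.31 (SE 0.06, adjusted p 0.00195) and 0.41 (SE 0.07, adjusted p 0.00072), and in MYC-OE 0.38 (SE 0.06, adjusted p 0.000376) and 0.29 (SE 0.07, adjusted p 0.00536), with no overlap with 3xCTL for either gene.

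PARP9 in the second table had 31.5, 27.5 and 33.6 CPM in 1xCtrl, 34.9, 35.6 and 34 in SRSF3-OE, 34.1, 35.9 and 33 in SRSF7-OE and 36.7, 37.1 and 35.2 in libraries labelled SRSF2-OE. The libraries labelled SRSF2-OE lay above the controls, 0.23 (SE 0.07, adjusted p 0.0322), a call lost without 1xCtrl library 1 and without SRSF2-OE library 1 or library 2 (adjusted p up to 0.0898). Upper-quartile scaling, library totals only, a replicate block and a fit of only the groups compared lost it too. DTX3L had 45.9, 38.3 and 46.2 CPM in 1xCtrl, 60.7, 53 and 55 in SRSF3-OE, 50.2, 51.5 and 47.9 in SRSF7-OE and 47, 45.7 and 42.8 in libraries labelled SRSF2-OE and, of these lines, was called in 1: it rose in SRSF3-OE, 0.37 (SE 0.08, adjusted p 0.00324). PARP14, which encodes a further ADP-ribosyltransferase, had 69.4, 72.2 and 68 CPM in 3xCTL, 90.5, 81.3 and 84.2 in the libraries labelled 3xSR and 89.9, 89.7 and 88.4 in MYC-OE, with 0.29 (SE 0.05, adjusted p 0.00137) in the libraries labelled 3xSR and 0.36 (SE 0.05, adjusted p 0.000228) in MYC-OE. Its levels in the second table were 81.7, 72 and 86.2 CPM in 1xCtrl, 106, 97.1 and 101 in SRSF3-OE, 92.1, 94.8 and 83.9 in SRSF7-OE and 81.7, 80 and 76.1 in libraries labelled SRSF2-OE, and it rose in SRSF3-OE, 0.34 (SE 0.07, adjusted p 0.00339). In SRSF7-OE none of the 3 was called, at 0.15, 0.17 and 0.20, and with the GC trend removed all 3 were called higher there, at 0.18, 0.19 and 0.21.

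RSAD2 and CMPK2, a head-to-head pair on chromosome 2, had the largest fold changes of the set in MYC-OE together with IRF7. RSAD2 encodes viperin, which converts CTP to a chain-terminating nucleotide, and CMPK2 a mitochondrial nucleotide kinase. RSAD2 had 0.0498, 0.0648 and 0.106 CPM in 3xCTL, 0.197, 0.314 and 0.175 in the libraries labelled 3xSR and 0.938, 0.935 and 1.16 in MYC-OE, and CMPK2 had 0.0954, 0.162 and 0.106 CPM in 3xCTL, 0.565, 0.32 and 0.538 in the libraries labelled 3xSR and 0.828, 0.979 and 1.06 in MYC-OE, so that in 3xCTL both were below 0.2 CPM. In MYC-OE the log2 fold changes were 3.79 (SE 0.33, adjusted p 3.32e-06) for RSAD2 and 2.99 (SE 0.29, adjusted p 8.99e-06) for CMPK2. In the libraries labelled 3xSR they were 1.66 (SE 0.33, adjusted p 0.00251) and 1.97 (SE 0.29, adjusted p 0.000323). No library of either line overlapped with 3xCTL in RSAD2 or CMPK2.

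For the second control and its lines, RSAD2 had 0.38, 0.446 and 0.531 CPM in 1xCtrl, 0.483, 0.534 and 0.546 in SRSF3-OE, 0.908, 0.803 and 0.666 in SRSF7-OE and 0.341, 0.419 and 0.189 in libraries labelled SRSF2-OE. CMPK2 had 0.38, 0.507 and 0.321 CPM in 1xCtrl, 0.422, 0.378 and 0.355 in SRSF3-OE, 0.808, 0.953 and 0.795 in SRSF7-OE and 1.02, 0.606 and 0.544 in libraries labelled SRSF2-OE. SRSF7-OE was higher in both, 0.81 (SE 0.26, adjusted p 0.0454) for RSAD2 and 1.08 (SE 0.25, adjusted p 0.0101) for CMPK2. CMPK2 alone was called higher in the libraries labelled SRSF2-OE, 0.84 (SE 0.25, adjusted p 0.0263), where RSAD2 had -0.51 (adjusted p 0.192). These calls were not firm: the RSAD2 call in SRSF7-OE was lost without any 1 of the 6 libraries compared (adjusted p up to 0.165), and that of CMPK2 without 1xCtrl library 1 or SRSF7-OE library 2 (up to 0.058). CMPK2 in the libraries labelled SRSF2-OE lost its call without 1xCtrl library 1 or library 3, or SRSF2-OE library 1 (up to 0.205).

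Further restriction factors were called higher in some lines and lower in others. BST2, or tetherin, holds budding virions at the cell surface, and lies on chromosome 19 (chr19:17402939-17405648, minus strand). It had 13.6, 11.3 and 14.9 CPM in 3xCTL, 7.34, 7.8 and 7.32 in the libraries labelled 3xSR and 17.8, 18.9 and 19.3 in MYC-OE. The 3 groups did not overlap: BST2 fell in the libraries labelled 3xSR, -0.83 (SE 0.09, adjusted p 4.85e-05), and rose in MYC-OE, 0.49 (SE 0.09, adjusted p 0.00146). Among the single-factor lines and their control, it had 10.8, 15.6 and 9.1 CPM in 1xCtrl, 7.21, 7.47 and 8.04 in SRSF3-OE, 22.8, 18.3 and 22.6 in SRSF7-OE and 6.37, 6.65 and 6.24 in libraries labelled SRSF2-OE. It was lowest in the libraries labelled SRSF2-OE, -0.88 (SE 0.16, adjusted p 0.00188), low in SRSF3-OE, -0.64 (SE 0.16, adjusted p 0.00899), and highest in SRSF7-OE, 0.84 (SE 0.16, adjusted p 0.00389). The SRSF3-OE call was lost without SRSF3-OE library 1 (adjusted p up to 0.0639) and the SRSF7-OE call without 1xCtrl library 1 (up to 0.0622). With the GC trend removed the 5 values were -0.66, 0.51, -0.85, -0.51 and 0.83, all of them called, in the order of 3xSR, MYC-OE, SRSF2-OE, SRSF3-OE and SRSF7-OE.

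TRIM22, a ubiquitin ligase that restricts several viruses, had 3.15, 2.97 and 3.26 CPM in 3xCTL, 3.37, 4.21 and 3.07 in the libraries labelled 3xSR and 4.41, 4.71 and 4.17 in MYC-OE, with 0.50 (SE 0.12, adjusted p 0.0069) in MYC-OE. In the second table it had 5.02, 4.59 and 5.06 CPM in 1xCtrl, 2.33, 2.62 and 2.03 in SRSF3-OE, 6.19, 6.56 and 6.21 in SRSF7-OE and 2.64, 2.42 and 2.68 in libraries labelled SRSF2-OE. The libraries labelled SRSF2-OE and those of SRSF3-OE lay below all controls, with -0.92 (SE 0.11, adjusted p 7.93e-05) and -1.07 (SE 0.11, adjusted p 1.47e-05). SRSF7-OE lay above all controls, 0.37 (SE 0.11, adjusted p 0.0317), a call lost without 1xCtrl library 1 or library 3 or any 1 of the SRSF7-OE libraries (adjusted p up to 0.084). TRIM22 shares 642 exon bases with OR56B1 on the same strand. GBP1, a guanylate-binding protein, rose in MYC-OE, 0.41 (SE 0.10, adjusted p 0.00732), and SRSF7-OE, 0.29 (SE 0.09, adjusted p 0.0411), and fell in the libraries labelled SRSF2-OE, -0.37 (SE 0.09, adjusted p 0.0107). The SRSF7-OE call of GBP1 was lost without 1xCtrl library 1 or library 2, or SRSF7-OE library 1 or library 3 (adjusted p up to 0.129).

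The neighbouring paralogs SAMD9 and SAMD9L on chromosome 7 encode cytosolic antiviral factors. SAMD9 rose in the libraries labelled 3xSR, 0.41 (SE 0.07, adjusted p 0.00121), and in MYC-OE, 0.53 (SE 0.07, adjusted p 0.000133), and had values between 0.05 and 0.07 in the second table. SAMD9L was not called in the first table (0.00 and 0.17) and fell in SRSF3-OE, -0.44 (SE 0.08, adjusted p 0.0015). In 3xCTL the mean levels were 57.3 ± 3.34 CPM for SAMD9 and 31.3 ± 2.63 CPM for SAMD9L (SD, n = 3).

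Among the IFI genes, IFI44 and IFI44L, paralogs side by side on chromosome 1 (chr1:78619922-78664078), were both called in the libraries labelled 3xSR and apart from that in separate lines. IFI44L had 2.8, 3.16 and 2.98 CPM in 3xCTL, 4.29, 4.9 and 4.36 in the libraries labelled 3xSR and 3.5, 3.44 and 3.22 in MYC-OE. The libraries labelled 3xSR exceeded both other groups, 0.60 (SE 0.10, adjusted p 0.000778), and MYC-OE was not called (0.18, adjusted p 0.176). The second table gave it 6.13, 4.84 and 6.79 CPM in 1xCtrl, 3.46, 3.21 and 3.56 in SRSF3-OE, 5.29, 5.31 and 4.79 in SRSF7-OE and 4.16, 4.74 and 4.35 in libraries labelled SRSF2-OE, below all controls in the libraries labelled SRSF2-OE, -0.42 (SE 0.12, adjusted p 0.0233), and in SRSF3-OE, -0.79 (SE 0.12, adjusted p 0.000332). IFI44 rose in the libraries labelled 3xSR, 0.28 (SE 0.06, adjusted p 0.00598), and in MYC-OE, 0.35 (SE 0.06, adjusted p 0.00104), and in the second table had values from 0.01 to 0.22 with no call.

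IFI35 had 3.79, 3.15 and 3.31 CPM in 3xCTL, 4.59, 4.88 and 5.17 in the libraries labelled 3xSR and 8.07, 8.06 and 8.5 in MYC-OE, and IFI27, a mitochondrial protein, had 3.04, 2.21 and 2.5 CPM in 3xCTL, 3.08, 3.35 and 3.44 in the libraries labelled 3xSR and 5.95, 6.07 and 6.46 in MYC-OE. In MYC-OE the log2 fold changes were 1.26 (SE 0.10, adjusted p 1.21e-06) and 1.25 (SE 0.12, adjusted p 8.65e-06). In the libraries labelled 3xSR they were 0.51 (SE 0.10, adjusted p 0.00171) and 0.35 (SE 0.12, adjusted p 0.0488), and the IFI27 call there was lost without 3xCTL library 2 or library 3 or any 1 of the 3xSR libraries (adjusted p up to 0.149). This IFI27 call was also lost with library totals only, no filter, limma-voom, a replicate block and only the groups compared. IFI35 in the second table had 4.1, 5.6 and 3.72 CPM in 1xCtrl, 5.21, 5.27 and 5.97 in SRSF3-OE, 7.02, 7.45 and 7.41 in SRSF7-OE and 6.18, 6.1 and 6.24 in libraries labelled SRSF2-OE. IFI27 had 4.83, 5.19 and 3.72 CPM in 1xCtrl, 5.26, 5.31 and 5.81 in SRSF3-OE, 8.28, 7.47 and 8.11 in SRSF7-OE and 5.2, 4.72 and 5.08 in libraries labelled SRSF2-OE. SRSF7-OE exceeded all controls in both, 0.70 (SE 0.13, adjusted p 0.00311) and 0.80 (SE 0.12, adjusted p 0.00092). IFI35 was also called higher in the libraries labelled SRSF2-OE, 0.46 (SE 0.13, adjusted p 0.0209), a call lost without 1xCtrl library 1 or library 3 or any 1 of the SRSF2-OE libraries (adjusted p up to 0.2).

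IFI6, which protects cells against flaviviruses, rose in MYC-OE, 0.53 (SE 0.09, adjusted p 0.000601), and SRSF7-OE, 0.30 (SE 0.09, adjusted p 0.0311), and fell in the libraries labelled SRSF2-OE, -0.30 (SE 0.09, adjusted p 0.0225). The SRSF7-OE call was lost without 1xCtrl library 1 or library 3, or SRSF7-OE library 1 or library 3 (adjusted p up to 0.179), and the other without 1xCtrl library 1 or SRSF2-OE library 2 (up to 0.0715). XAF1, a pro-apoptotic antagonist of XIAP, had 5.15, 5.5 and 5.31 CPM in 3xCTL, 4.22, 4.54 and 3.56 in the libraries labelled 3xSR and 5.11, 5.65 and 4.89 in MYC-OE. It fell in the libraries labelled 3xSR, -0.37 (SE 0.11, adjusted p 0.0204), a call lost without 3xSR library 3 (adjusted p up to 0.0914). For the second control and its lines, XAF1 had 7.71, 6.6 and 7.4 CPM in 1xCtrl, 4.42, 5.14 and 4.28 in SRSF3-OE, 6.46, 7.22 and 6.2 in SRSF7-OE and 4.9, 6.62 and 6.78 in libraries labelled SRSF2-OE. It fell in SRSF3-OE, -0.65 (SE 0.13, adjusted p 0.00216), with no overlap with the control. It shares 2535 of 6615 exon bases with a gene on the opposite strand.

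LGALS3BP had 854, 630.5 and 870.1 CPM in 3xCTL, 534, 586 and 522 in the libraries labelled 3xSR and 762, 784 and 813 in MYC-OE. It fell in the libraries labelled 3xSR, -0.52 (SE 0.11, adjusted p 0.00495), where 3xCTL library 2 was the lowest control, and with the GC trend removed the value was -0.31 (adjusted p 4.26e-05). Among the single-factor lines and their control, it had 563, 893 and 477 CPM in 1xCtrl, 558, 526 and 546 in SRSF3-OE, 665, 542 and 693 in SRSF7-OE and 550.2, 508 and 543 in libraries labelled SRSF2-OE, with library 2 of the controls far above the rest, and no call. With the GC trend removed it was called lower in the libraries labelled SRSF2-OE, -0.21 (adjusted p 0.0255), but not in SRSF3-OE, -0.07 (adjusted p 0.496). EPSTI1, not called in any line, had log2 fold changes from -0.25 to 0.11.

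Compared directly, MYC-OE had 25 members higher and 5 lower than the libraries labelled 3xSR (34.9% of all genes called, and 47.7% of those with a mean of at least 1 CPM). These libraries differed in the median deviation of GC-rich minus GC-poor genes too, at 0.21 to 0.38 in MYC-OE and -0.40 to -0.22 in the libraries labelled 3xSR, and with the GC trend removed 33 members were higher and 5 lower. The share of all genes called in that fit is not given here, so the larger count is no result about the set. The largest differences were in OASL, 2.17 (SE 0.10, adjusted p 7.75e-08), RSAD2, 2.13 (SE 0.29, adjusted p 0.000207), ISG15, 1.37 (SE 0.22, adjusted p 0.00117), and BST2, 1.32 (SE 0.09, adjusted p 2.23e-06). STAT2, IRF9, OAS1, OAS2 and IFI44L were lower in MYC-OE, with -0.37, -0.68, -0.19, -0.36 and -0.42. All 3 IFITM genes were higher in MYC-OE, by 0.73, 0.75 and 0.85.

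SRSF7-OE also differed from the other lines of its table, in fold changes that do not rest on the 1xCtrl libraries. Against the libraries labelled SRSF2-OE 20 members were higher and 1 lower (24.2% of all genes called, 34.0% of those with a mean of at least 1 CPM), and against SRSF3-OE 21 were higher and 2 lower (35.2% and 47.2%). The median deviation of GC-rich minus GC-poor genes was 0.26, -0.08 and 0.39 in SRSF7-OE, against -0.33, -0.21 and -0.16 in SRSF3-OE. In the libraries labelled SRSF2-OE it was 0.09, -0.02 and 0.10. Counts with the GC trend removed are not given here for these 2 comparisons. The member lower than in the libraries labelled SRSF2-OE was IRF9, -0.43 (SE 0.10, adjusted p 0.00741). Those lower than in SRSF3-OE were IRF9, -0.48 (SE 0.10, adjusted p 0.00215), and MX1, -0.18 (SE 0.06, adjusted p 0.0324). BST2 was higher by 1.72 (SE 0.16, adjusted p 1.99e-05) and by 1.49 (SE 0.16, adjusted p 2.04e-05), TRIM22 by 1.29 (SE 0.11, adjusted p 6.43e-06) and by 1.44 (SE 0.11, adjusted p 7.12e-07), and IFITM2 by 1.23 (SE 0.16, adjusted p 0.000148) and by 1.28 (SE 0.16, adjusted p 4.45e-05). SRSF3-OE had 8 members higher and 4 lower than the libraries labelled SRSF2-OE (26.8% of all genes called). The 12 are 29.3% of the set, near that share and below the 36.5% called among genes with a mean of at least 1 CPM, so the count is not a result about the set. Among the 12 were OASL, 0.83 (SE 0.12, adjusted p 0.000227), IFITM1, 0.57 (SE 0.12, adjusted p 0.00296), and HERC5, 0.43 (SE 0.09, adjusted p 0.00357), on the higher side, and OAS1, -0.42 (SE 0.07, adjusted p 0.00113), and XAF1, -0.40 (SE 0.13, adjusted p 0.0361), on the lower. The split depended on the scaling: 5 higher and 6 lower by upper quartile, 6 and 7 by library totals only, and 10 and 10 with the GC trend removed.

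MYC-OE and SRSF7-OE, which have different control libraries, had 16 members called in both, 15 of them higher in both and IRF9 lower in both. These are 55.2% of the 29 members called in MYC-OE and 88.9% of the 18 called in SRSF7-OE. As shares of the 41 genes, 39% were called in both and 36.6% higher in both, beside 11.6% and 5.7% of the 22941 genes tested in both tables. Across the 41 genes the log2 fold changes had a Pearson correlation of 0.692, given as a description, since genes share libraries. The 15 were IRF1, DDX60, IFIT2, IFIT3, OASL, HERC5, IFITM1, RSAD2, CMPK2, TRIM22, BST2, GBP1, IFI6, IFI27 and IFI35. Effects were larger in MYC-OE for some of them: the difference of the effects, tested in a joint fit of both tables (a comparison added after seeing the data), was 1.65 (SE 0.15, adjusted p 2.10e-07) for OASL, 3.00 (SE 0.41, adjusted p 3.77e-05) for RSAD2, 1.92 (SE 0.38, adjusted p 0.00171) for CMPK2, 0.74 (SE 0.14, adjusted p 0.000842) for HERC5 and 0.57 (SE 0.17, adjusted p 0.0285) for IFI35. In all 13 members differed between these effects, 8 with the higher value in MYC-OE and 5 in SRSF7-OE (13.7% of all genes). IFITM2, -0.78 (SE 0.20, adjusted p 0.0123), and IRF1, -0.27 (SE 0.09, adjusted p 0.0438), were among the 5. By upper quartile 9 were higher and 2 lower in MYC-OE, and 8 were called when only the groups compared were fitted.

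**Figure D4:**
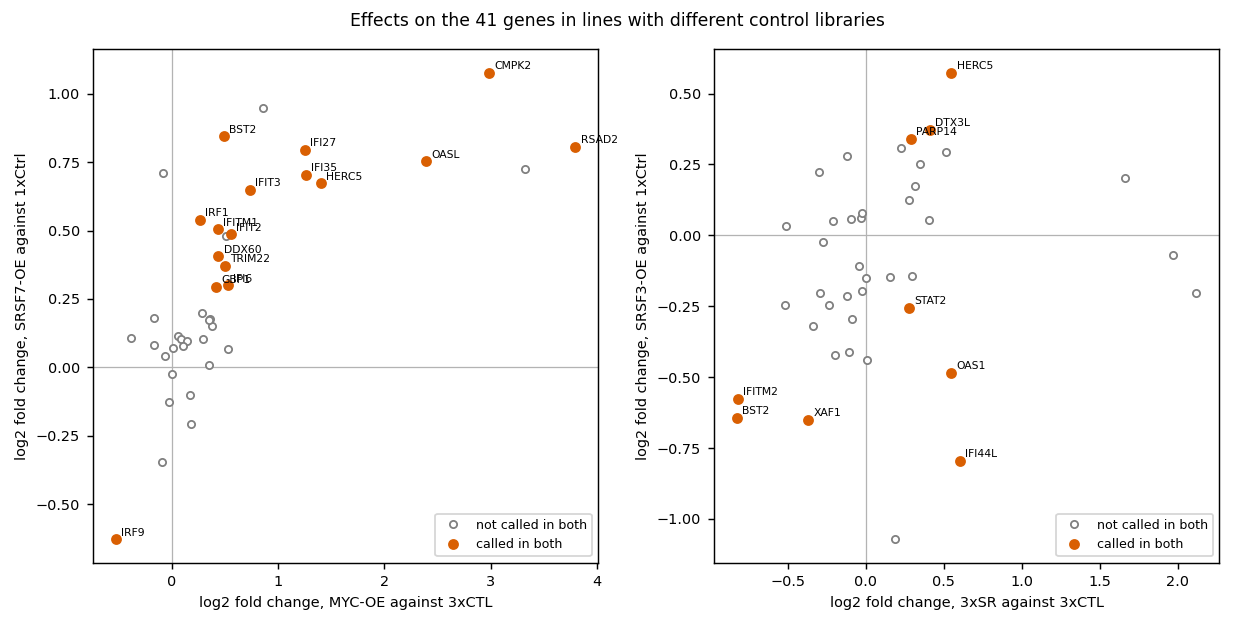
Log2 fold change of the 41 genes in MYC-OE (horizontal) against SRSF7-OE (vertical) on the left, and in the libraries labelled 3xSR (horizontal) against SRSF3-OE (vertical) on the right, each line against its own control. Filled points are genes called in both comparisons. On the left 16 points are filled, 15 at the upper right and IRF9 at the lower left; on the right 9 are filled, of which 3 (STAT2, OAS1 and IFI44L) have opposite signs.

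The effects of MYC-OE and of the libraries labelled SRSF2-OE were called in opposite directions for 8 of the 11 members called in both, and those of MYC-OE and SRSF3-OE for 6 of 10. The 11 are 37.9% of the members called in MYC-OE and 78.6% of those called in the libraries labelled SRSF2-OE, and the 10 are 34.5% and 62.5%. Of all genes tested in both tables, 13.4% were called in both MYC-OE and the libraries labelled SRSF2-OE, and 21.2% of these in opposite directions, beside 26.8% and 72.7% of the members. With SRSF3-OE these shares were 14.9% and 32.8% of all genes, beside 24.4% and 60% of the members. The difference of effects was called in 23 members for MYC-OE against the libraries labelled SRSF2-OE, all 23 higher in MYC-OE (22.0% of all genes), and in 24 for MYC-OE against SRSF3-OE, 23 higher and 1 lower (29.2%). TRIM22 differed by 1.43 (SE 0.16, adjusted p 1.59e-06) and by 1.59 (SE 0.16, adjusted p 2.83e-07), and BST2 by 1.39 (SE 0.21, adjusted p 6.60e-05) and by 1.15 (SE 0.21, adjusted p 0.000283). The 1 member with the lower value in MYC-OE was IFIT5, -0.59 (SE 0.12, adjusted p 0.00122).

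The joint line was set beside each single line in the same way. Between the libraries labelled 3xSR and those labelled SRSF2-OE 15 members differed in effect, 14 with the higher value in 3xSR (21.9% of all genes). Against SRSF3-OE 12 differed, 10 higher and 2 lower (17.8%), and against SRSF7-OE 18, 6 higher and 12 lower (24.6%). The 15 became 9 without 1xCtrl library 1 or SRSF2-OE library 3 and 8 with only the groups compared, and the 6 and 12 became 5 and 17 with the GC trend removed. Besides genes with opposite calls, TRIM22 differed from the libraries labelled SRSF2-OE by 1.11 (SE 0.16, adjusted p 3.22e-05) and from SRSF3-OE by 1.27 (SE 0.16, adjusted p 1.29e-05). RSAD2 differed by 2.18 (SE 0.42, adjusted p 0.000816) and by 1.47 (SE 0.42, adjusted p 0.0184). The 12 lower against SRSF7-OE included IFITM1, IFITM2, IFITM3, BST2, DDX60, IFIT2 and IFIT3, of which IFIT3 had -0.74 (SE 0.13, adjusted p 0.000409). Members called both in the libraries labelled 3xSR and in a single line numbered 8 with SRSF2-OE (33.3% of the members called in 3xSR and 57.1% of the others), 9 with SRSF3-OE (37.5% and 56.2%) and 9 with SRSF7-OE (37.5% and 50%). Of these 2, 3 and 4 had opposite directions. As shares of those called in both these are 25%, 33.3% and 44.4%, beside 31.5%, 13.5% and 47.5% over all genes tested in both tables. In the same order, 19.5%, 22% and 22% of all members were called both in 3xSR and in the single line. Of all genes tested in both tables, 11.1%, 14.2% and 7.93% were called in both.

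The other genes of the pathway give the setting. Of 89 listed genes outside the set, 78 could be tested. The interferon genes themselves were nearly silent: IFNA1, IFNA2, IFNA5, IFNW1, IFNG, IFNL2 and IFNL3 had 0 counts in every library, which allows up to 0.00947 to 0.0210 CPM depending on the depth of the library. IFNB1 reached 16 counts, IFNK 10 and IFNL1 6 in any library. IFNE, an interferon of epithelia, was the only ligand tested, at 1.47 ± 0.252 CPM (SD, n = 3) in 1xCtrl and 0.933 ± 0.179 CPM in SRSF3-OE, where it fell, -0.66 (SE 0.18, adjusted p 0.014).

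Receptor genes were called in every line. In the libraries labelled SRSF2-OE 4 of 6 were lower and none higher, among them IFNAR2, a chain of the type I receptor, -0.63 (SE 0.09, adjusted p 0.000257), and IFNLR1, the type III chain, -0.51 (SE 0.06, adjusted p 7.86e-05). MYC-OE had 3 higher and 1 lower, those labelled 3xSR had 3 higher, and in SRSF3-OE and SRSF7-OE 2 were higher, with none lower in these 3 lines. Of all genes tested, 23.5% were called in the libraries labelled SRSF2-OE, 35.3% in MYC-OE and 29% in those labelled 3xSR. The share was 29.2% in SRSF3-OE and 17.3% in SRSF7-OE. With 6 receptor genes, a call in every line is therefore no result about the group. IFNGR2 had the largest rise, 0.76 (SE 0.05, adjusted p 5.31e-07) in MYC-OE. TYK2 fell in MYC-OE, -0.52 (SE 0.13, adjusted p 0.0128).

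Sensors and adaptors were called higher in 5 and lower in 3 of 11 in the libraries labelled 3xSR, 4 and 2 in MYC-OE, 1 and 3 in those labelled SRSF2-OE, 1 and 2 in SRSF3-OE, and 0 in SRSF7-OE by edgeR, where 4 had an unadjusted p under 0.05. In the same order, 29%, 35.3%, 23.5%, 29.2% and 17.3% of all genes tested were called. The SRSF3-OE counts lie near that share and are no result about the group. The DNA sensor AIM2 rose in the libraries labelled 3xSR, 0.60 (SE 0.10, adjusted p 0.000909), and MYC-OE, 0.57 (SE 0.10, adjusted p 0.000873). TLR3, an endosomal receptor of double-stranded RNA, fell in the libraries labelled SRSF2-OE, -0.67 (SE 0.09, adjusted p 0.000252), and so did DHX58, a regulator of RNA sensing, -0.63 (SE 0.15, adjusted p 0.0093). The kinase gene IKBKE, which acts upstream of interferon induction, fell in the libraries labelled 3xSR, -0.53 (SE 0.10, adjusted p 0.00179), and in MYC-OE, -0.58 (SE 0.10, adjusted p 0.000688). SOCS1, an inhibitor of JAK kinases, rose in MYC-OE, 0.76 (SE 0.26, adjusted p 0.0357), and SOCS3 in SRSF3-OE, 0.59 (SE 0.14, adjusted p 0.007). PTPN6, a phosphatase, fell in SRSF3-OE, -0.50 (SE 0.12, adjusted p 0.00536).

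Of 42 further interferon-induced genes, 22 were higher and 2 lower in MYC-OE, 14 and 2 in SRSF7-OE, 11 and 6 in the libraries labelled 3xSR, 9 and 13 in those labelled SRSF2-OE and 5 and 11 in SRSF3-OE. Of all genes tested, 18.0% were higher and 17.3% lower in MYC-OE, 9.03% and 8.26% in SRSF7-OE, 15.3% and 13.7% in the libraries labelled 3xSR, 11.6% and 11.9% in those labelled SRSF2-OE and 15.0% and 14.1% in SRSF3-OE, so that the lower calls in the libraries labelled 3xSR and the higher calls in SRSF3-OE lie near those shares. Their median log2 fold changes were 0.26, 0.16, 0.09, -0.08 and -0.05 in that order. The chemokine gene CCL5 had 0.143 ± 0.014 CPM (SD, n = 3) in 3xCTL and 2.69 ± 0.235 CPM in MYC-OE, 4.23 (SE 0.19, adjusted p 1.73e-08). It was also higher in SRSF7-OE, 1.20 (SE 0.23, adjusted p 0.00382), and in the libraries labelled 3xSR, 1.33 (SE 0.19, adjusted p 0.000277), and lower in those labelled SRSF2-OE, -0.78 (SE 0.24, adjusted p 0.0302). CXCL10, a chemokine under 1 CPM in every group mean, was higher in the libraries labelled 3xSR, 1.47 (SE 0.36, adjusted p 0.00924), and in MYC-OE, 1.35 (SE 0.36, adjusted p 0.0114), and lower in those labelled SRSF2-OE, -2.09 (SE 0.51, adjusted p 0.0109). LAMP3, a lysosomal membrane protein, rose in MYC-OE, 1.49 (SE 0.09, adjusted p 1.19e-07), in SRSF7-OE, 1.07 (SE 0.08, adjusted p 9.87e-06), and in the libraries labelled SRSF2-OE, 0.54 (SE 0.08, adjusted p 0.000476).

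Further genes of this list were called in 1 or more lines. RTP4 rose in MYC-OE, 0.96 (SE 0.16, adjusted p 0.000677), and SRSF7-OE, 0.74 (SE 0.15, adjusted p 0.00602), and fell in SRSF3-OE, -0.66 (SE 0.16, adjusted p 0.00672). LY6E rose in MYC-OE, 0.59 (SE 0.10, adjusted p 0.000991), and SRSF7-OE, 0.79 (SE 0.22, adjusted p 0.0395), and fell in the libraries labelled 3xSR, -0.51 (SE 0.10, adjusted p 0.00357). SLFN5 rose in MYC-OE, 0.55 (SE 0.06, adjusted p 1.36e-05), and SRSF7-OE, 0.53 (SE 0.09, adjusted p 0.00198). GBP4 rose in SRSF7-OE, 1.34 (SE 0.22, adjusted p 0.00176), and fell in the libraries labelled SRSF2-OE, -0.88 (SE 0.23, adjusted p 0.0139); the values of IDO1, which degrades tryptophan, were 0.85 (SE 0.19, adjusted p 0.00855) and -0.70 (SE 0.19, adjusted p 0.018), and -0.67 (SE 0.19, adjusted p 0.0175) in SRSF3-OE. GBP2 rose in the libraries labelled 3xSR, 0.67 (SE 0.12, adjusted p 0.00174), and MYC-OE, 0.89 (SE 0.12, adjusted p 0.000165), and fell in SRSF3-OE, -0.70 (SE 0.15, adjusted p 0.00391). APOL1 and ISG20 rose in MYC-OE, 0.63 (SE 0.05, adjusted p 1.91e-06) and 0.84 (SE 0.20, adjusted p 0.00675). UBE2L6, the conjugating enzyme for ISG15, rose in SRSF7-OE, 0.57 (SE 0.06, adjusted p 0.000115), while UBA7, the activating enzyme, fell in the libraries labelled 3xSR, -0.58 (SE 0.10, adjusted p 0.000879), and in SRSF3-OE, -0.55 (SE 0.10, adjusted p 0.000897). APOL6 and RNF213 fell in SRSF3-OE, -0.57 (SE 0.08, adjusted p 0.000104) and -0.52 (SE 0.08, adjusted p 0.00024), and RNF213 also in MYC-OE, -0.54 (SE 0.07, adjusted p 6.17e-05). TMEM140 rose in the libraries labelled 3xSR, 0.54 (SE 0.18, adjusted p 0.0437), and in MYC-OE, 0.55 (SE 0.18, adjusted p 0.0341), and fell in those labelled SRSF2-OE, -0.65 (SE 0.13, adjusted p 0.00315). PLSCR1, a phospholipid scramblase, was higher in all 5 comparisons, from 0.29 to 0.65, and NLRC5, a regulator of MHC class I genes, was lower in all 5, from -0.41 to -0.31; the comparisons within a table share their control libraries.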

How the data were processed

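Counts per gene were used as deposited, in 2 tables of raw counts that the authors made, 1 column for each of the 21 libraries. Per the labels' protocols, libraries were stranded and polyA-selected and read as pairs. Per the submitters' processing notes, Trimmomatic 0.39, STAR, StringTie 2.1.3b and the build GRCh38.p13 were used; which tool counted, its strand setting and the annotation release are not given in the sources used here. Library totals ran from 143269192 to 303323552 counts, so the floor of 3 counts lies between 0.00947 and 0.0210 CPM; floors cover counting error only. Replicates differed by more than counting error (chi-square per degree of freedom 17.1 to 302), and no libraries were merged.

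Groups and replicate numbers came from the titles. The members and lists were chosen with earlier results of these data known. Members were matched by Ensembl identifier with the version dropped. Each table was fitted in R 4.3.3 with edgeR 4.0.16: filterByExpr (minimum count 10, minimum total count 15), TMM scaling, robust quasi-likelihood fits over all groups of the table and F tests of each contrast, with Benjamini-Hochberg adjustment over all genes tested and a threshold of 0.05. Differences of effects between tables came from a joint fit of both; those with MYC-OE were added after seeing the data. SE is the absolute log2 fold change divided by the square root of F. CPM are counts scaled to 1e6 of the TMM-scaled library size within a table. All tests are two-sided. Alternatives were other scalings (RLE, upper quartile, total counts), filters, DESeq2 1.42.0, limma-voom (limma 3.58.1), a replicate block, removal of each library's GC trend (50 bins), fits of only the groups compared, leaving out each library and a minimum absolute log2 fold change of 1. The procedure was tested on simulated data. Lengths, GC content, overlaps and positions came from GENCODE release 29 (GRCh38), while the authors' own annotation is unknown here; promoters came from RefSeq (GRCh38.p14), matched by symbol. Given for every library were STAT2, IRF1, IRF7, IRF9, ISG15, IFIT1, MX1, OAS1 and, in each of the 5 comparisons with a control, the 3 highest and 3 lowest called members with a mean of at least 1 CPM; RSAD2 and CMPK2 were added after their values were seen. Pathway genes were named where called with an absolute log2 fold change of at least 0.5, or at or under 3 counts in every library; 1 further gene is not reported here, and a few lesser values of these genes' relatives were added afterwards. Isoforms were not analysed here.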

Additional observations from a re-analysis of the deposited data

Results flagged for a closer look

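In 23 results a member was called in opposite directions in 2 lines with different control libraries and the difference of the effects, tested in the joint edgeR fit, was called too. Both the opposite calls and the difference came from the same libraries. The call of the difference was thus nearly fixed beforehand, and is no further support for these results. Between the libraries labelled 3xSR and those labelled SRSF2-OE these were OAS2, which differed by 0.59 (SE 0.10, adjusted p 0.000156), and IFI44L, by 1.03 (SE 0.15, adjusted p 4.54e-05), both higher with 3xSR. Between 3xSR and SRSF3-OE they were STAT2, 0.55 (SE 0.09, adjusted p 0.000261), OAS1, 1.04 (SE 0.10, adjusted p 3.19e-07), and IFI44L, 1.41 (SE 0.15, adjusted p 2.09e-06). Between 3xSR and SRSF7-OE they were STAT2, 0.63 (SE 0.09, adjusted p 4.05e-05), in which 3xSR was the higher, and IFITM1, -0.79 (SE 0.15, adjusted p 0.000679), IFITM2, -1.52 (SE 0.20, adjusted p 1.56e-05), and BST2, -1.66 (SE 0.21, adjusted p 9.12e-06), in which it was the lower. The label 3xSR names SRSF7 among its factors, and SRSF7 was higher in both lines than in their controls. Of the members called both in 3xSR and in a single line, 25% had opposite calls with SRSF2-OE, 33.3% with SRSF3-OE and 44.4% with SRSF7-OE. Over all genes tested in both tables these shares were 31.5%, 13.5% and 47.5%. The opposite calls with SRSF2-OE and SRSF7-OE are thus not a result about the set.

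MYC-OE had the higher value in all of its 14 results of this kind. Against the libraries labelled SRSF2-OE the difference was 0.62 (SE 0.09, adjusted p 2.68e-05) for IRF1, 0.82 (SE 0.12, adjusted p 5.63e-05) for DDX60, 2.92 (SE 0.15, adjusted p 6.75e-11) for OASL and 1.22 (SE 0.15, adjusted p 7.29e-06) for IFITM1. It was 1.43 (SE 0.16, adjusted p 1.59e-06) for TRIM22, 1.39 (SE 0.21, adjusted p 6.60e-05) for BST2, 0.79 (SE 0.13, adjusted p 0.000173) for GBP1 and 0.85 (SE 0.12, adjusted p 4.59e-05) for IFI6. Against SRSF3-OE it was 0.58 (SE 0.09, adjusted p 3.81e-05) for IRF1, 0.88 (SE 0.12, adjusted p 1.81e-05) for DDX60 and 0.72 (SE 0.12, adjusted p 0.000148) for IFIT1, and 0.86 (SE 0.10, adjusted p 1.32e-06) for OAS1, 1.59 (SE 0.16, adjusted p 2.83e-07) for TRIM22 and 1.15 (SE 0.21, adjusted p 0.000283) for BST2. No group has more than 3 libraries, so no library was tested as standing apart within its group.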

How the results depend on the processing

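Of the 205 results for a member in a comparison with a control, 101 were called; 76 of these kept their call in every alternative but the minimum fold change, 25 lost it in at least 1, and none of the 101 reversed. Leaving out 1xCtrl library 1 cost the most calls of any single library (13). Among the other settings, fits of only the groups compared cost 17 calls and the replicate block 8. No filter and upper-quartile scaling cost 6 each. Here and below, the share of all genes called under each alternative is not given. Shifts in the counts are therefore not read as particular to the set. SAMD9L in the libraries labelled 3xSR, not called at 0.00, became -0.11 with the GC trend removed (adjusted p 0.0491). With the GC trend removed the number called was 24 in the libraries labelled SRSF2-OE (7 higher, 17 lower), 20 for SRSF3-OE against these (10 and 10) and 22 for the effect of 3xSR minus that of SRSF7-OE (5 and 17). Library totals alone gave 18 in the libraries labelled SRSF2-OE (1 and 17) and moved the median of all genes in SRSF3-OE from -0.03 to -0.14. Fits of only the groups compared gave 8 for the effect of 3xSR minus that of SRSF2-OE and 8 for the effect of MYC-OE minus that of SRSF7-OE.

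When calls also had to reach an absolute log2 fold change of 1, 3 members were left in the libraries labelled 3xSR, 7 in MYC-OE, 1 in SRSF3-OE, 1 in SRSF7-OE and 0 in those labelled SRSF2-OE. This rule left 6 for MYC-OE against 3xSR, 0 for SRSF3-OE against SRSF2-OE, 6 for SRSF7-OE against SRSF2-OE and 4 for SRSF7-OE against SRSF3-OE. For the effect of 3xSR minus that of SRSF2-OE, SRSF3-OE and SRSF7-OE it left 4, 6 and 2. Its construction asks for larger changes; the cause of the other shifts was not tested.

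With 1 library left out the number called ran from 20 to 24 in 3xSR, 26 to 30 in MYC-OE, 10 to 19 in SRSF2-OE, 13 to 21 in SRSF3-OE and 10 to 20 in SRSF7-OE. It ran from 25 to 30 for MYC-OE against 3xSR, 9 to 12 for SRSF3-OE against SRSF2-OE, 18 to 22 for SRSF7-OE against SRSF2-OE and 21 to 23 for SRSF7-OE against SRSF3-OE. For the effect of 3xSR minus that of SRSF2-OE it ran from 9 (without 1xCtrl library 1 or SRSF2-OE library 3) to 20, minus SRSF3-OE from 10 to 18 and minus SRSF7-OE from 16 to 26. The highest of these 3 came without 1xCtrl library 2. For the effect of MYC-OE the ranges were 22 to 26, 24 to 26 and 9 to 18.

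Replicate numbers are shared between groups, but deviations of libraries with the same number did not correlate above 0.1 (in SRSF7-OE against 1xCtrl -0.04, -0.36 and -0.27), so the numbers were not taken as pairs. With a replicate block the numbers called were 22 in 3xSR, 29 in MYC-OE, 16 in SRSF3-OE, 14 in SRSF7-OE and 12 in SRSF2-OE. The block gave 29 for MYC-OE against 3xSR, 8 for SRSF3-OE against SRSF2-OE, 20 for SRSF7-OE against SRSF2-OE and 22 for SRSF7-OE against SRSF3-OE, and 15, 12 and 18 for the 3 effects of 3xSR. Members with means under 1 CPM in a control (RSAD2 and CMPK2 in both, IRF7 in 3xCTL) rest on few counts, and depth limits their precision.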
